A study of Mus musculus with 16 samples.

Results

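The 10 genes described here encode interferon-inducible GTPases, and they were chosen by name from the tables of read counts: Irgm1, Irgm2, Igtp, Iigp1, Ifi47, Tgtp1, Tgtp2, Gbp2, Gbp3 and Gbp7. All 10 are listed among 52636 genes in the crypt table and the KO CAG organoid table, and among 54532 genes in the KO IEC organoid table. The study asked what the scaffold protein CUL4B, which assembles a ubiquitin ligase, does in the small intestine, and it named the protein IRGM1 as a substrate of that ligase. RNA was sequenced from 16 libraries in 3 experiments, all of small intestine from C57BL/6 mice: 4 WT and 4 KO IEC libraries of crypts, 2 WT and 2 KO IEC libraries of organoids, and 2 WT and 2 KO CAG libraries of organoids. KO IEC mice carried pVillin-Cre and a conditional Cul4b allele (Cul4b fn/Y), so that Cul4b was deleted in the intestinal epithelium from the time the villin promoter is active. The WT controls of that line carried the same allele without Cre. KO CAG organoids carried CAG-CreERT2, a recombinase made in all cells and activated by 4-hydroxytamoxifen, with the same conditional allele. Whether the WT cultures of the KO CAG experiment carried CreERT2 or received 4-hydroxytamoxifen is not stated in the sources used here. The age of the sequenced mice is not given per library. Crypts, the pockets of the epithelium where intestinal stem cells and Paneth cells sit, were freed from scraped intestine with EDTA, so a crypt preparation can also hold cells lodged in the epithelium. Organoids are epithelial cultures grown from crypts in Matrigel.

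Interferon-gamma binds the receptor chains IFNGR1 and IFNGR2, the kinases JAK1 and JAK2 pass the signal on, and the factor IRF1 is among those that drive the GTPase genes. Type I and type III interferons reach a partly overlapping set of genes through a complex that includes STAT2 and IRF9 and binds a DNA element called the ISRE. The immunity-related GTPases fall into a regulatory group (Irgm1, Irgm2 and Igtp, also called Irgm3), which sits on host membranes, and an effector group (Iigp1, Ifi47, Tgtp1 and Tgtp2), which the regulators keep inactive there and which can load onto the vacuoles of intracellular pathogens. The guanylate-binding proteins (Gbp2, Gbp3 and Gbp7) form a related family that acts on the same vacuoles. Irgm1 is also known for a part in autophagy and for its need in Paneth cells, whose granules are abnormal in mice without it.

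Irgm1 (ENSMUSG00000046879) lies on chromosome 11 from 48861968 to 48871683 on the minus strand. Irgm2, Igtp, Ifi47, Tgtp1 and Tgtp2 are also on chromosome 11, and the 3 GBP genes are on chromosome 3. Igtp (58199556 to 58207591) and Irgm2 (58199618 to 58222782) start next to each other on the plus strand of chromosome 11 in the count tables and overlap over 7974 bases, of which 162 are exonic in both genes (8.01% of the exon bases of Igtp and 4.39% of those of Irgm2). Tgtp1 and Tgtp2 are near-identical copies: 73.1% of the 100-base words in Tgtp1 transcripts and 76.8% of those in Tgtp2 transcripts also occur in transcripts of another gene. Counts of Tgtp1 and Tgtp2 are therefore uncertain, since reads from one copy can be dropped or assigned to the other. The same share was 5.16% for Igtp, 3.01% for Irgm2, 10.01% for Gbp7, mostly through the pseudogene Gm43802, and 0.842% or less for the other 5 genes, with no shared word in Irgm1. Positions are those of the count tables, which equal GENCODE release M21 on GRCm38 for 9 of the 10 genes.

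The promoters show what the genes have in common beyond the family name. RefSeq start sites on GRCm38.p6 were found for 9 of the 10 genes, all except Iigp1, and Gbp3 has 2 of them. They are not always the starts of the count tables: that of Irgm2 lies 15359 bases further along, at 58214977, that of Tgtp1 1926 bases away, and the others 0 to 330 bases away. The 250 bases before each start were searched on both strands for the core of the ISRE, written GAAANNGAAA, where N is any base. It was present for 8 of the 9 genes, against 978 of all 32851 windows of the same length (2.98%). The only gene with a window and no match was Ifi47. The stretches of 30 bases around the matches are printed here on the strand of each gene, with the matched bases in capitals, because they hold the element that interferon-activated factors are known to bind.
Irgm1, chr11:48871428-48871457, minus strand: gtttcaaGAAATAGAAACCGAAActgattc
Irgm2, chr11:58214903-58214932, plus strand: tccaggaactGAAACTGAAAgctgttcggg
Igtp, chr11:58199512-58199541, plus strand: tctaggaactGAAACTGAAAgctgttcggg
Tgtp1, chr11:48992304-48992333, minus strand: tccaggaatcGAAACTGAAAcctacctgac
Tgtp2, chr11:49064263-49064292, minus strand: tccaggaatcGAAACCGAAAcctactctga
Gbp2, chr3:142620594-142620623, plus strand: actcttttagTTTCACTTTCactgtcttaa
Gbp3, chr3:142559992-142560021, plus strand: gacacagTTTCAGTTTCTATTTCccagatc
Gbp7, chr3:142530273-142530302, plus strand: gtgtgtgcagTTTCAGTTTCagttctccat
The matches of Irgm1 and Gbp3 each hold 2 overlapping copies of the core. The 5 genes of the immunity-related family carry the core on the strand of the gene, and the 3 GBP genes carry it on the opposite strand, where it reads as TTTCNNTTTC. The nearest capital base lay 15 bases before the start of Irgm1 and 25 to 68 bases before the start in the others. The printed stretches of Igtp and Irgm2 have 29 of 30 bases in common, and those of Tgtp1 and Tgtp2 have 24 of 30. A match is a description of the letters in the window and not a measured binding site.

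Total counts were 9311734 to 13479974 per crypt library and 7348191 to 16881395 per organoid library. Levels are given as CPM, the counts of a gene per 1000000 counts of its library, scaled with the TMM factors of edgeR. A level of 3 counts, taken as the smallest that can be read, was 0.178 to 0.408 CPM over the 16 libraries, which covers counting error only. Cul4b itself was at 31.6 to 83.1 CPM in WT libraries and 0.846 to 5.18 CPM in KO libraries, and no library went against its label. The 8 epithelial markers summed to 6640 to 11802 CPM in the 16 libraries and the 10 crypt base markers to 2248 to 16869 CPM. The crypt libraries also differed in mitochondrial ribosomal RNA (mt-Rnr1 plus mt-Rnr2), which took 18.9 to 25.2 CPM in WT 1 and KO IEC 1, 2 and 3, 834 CPM in WT 4, 1078 CPM in the library KO IEC 4, and 2840 and 2873 CPM in WT 2 and WT 3. In crypt RNA, a change in the number of cells of a type and a change in the RNA per cell cannot be told apart.

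**Figure D1:**
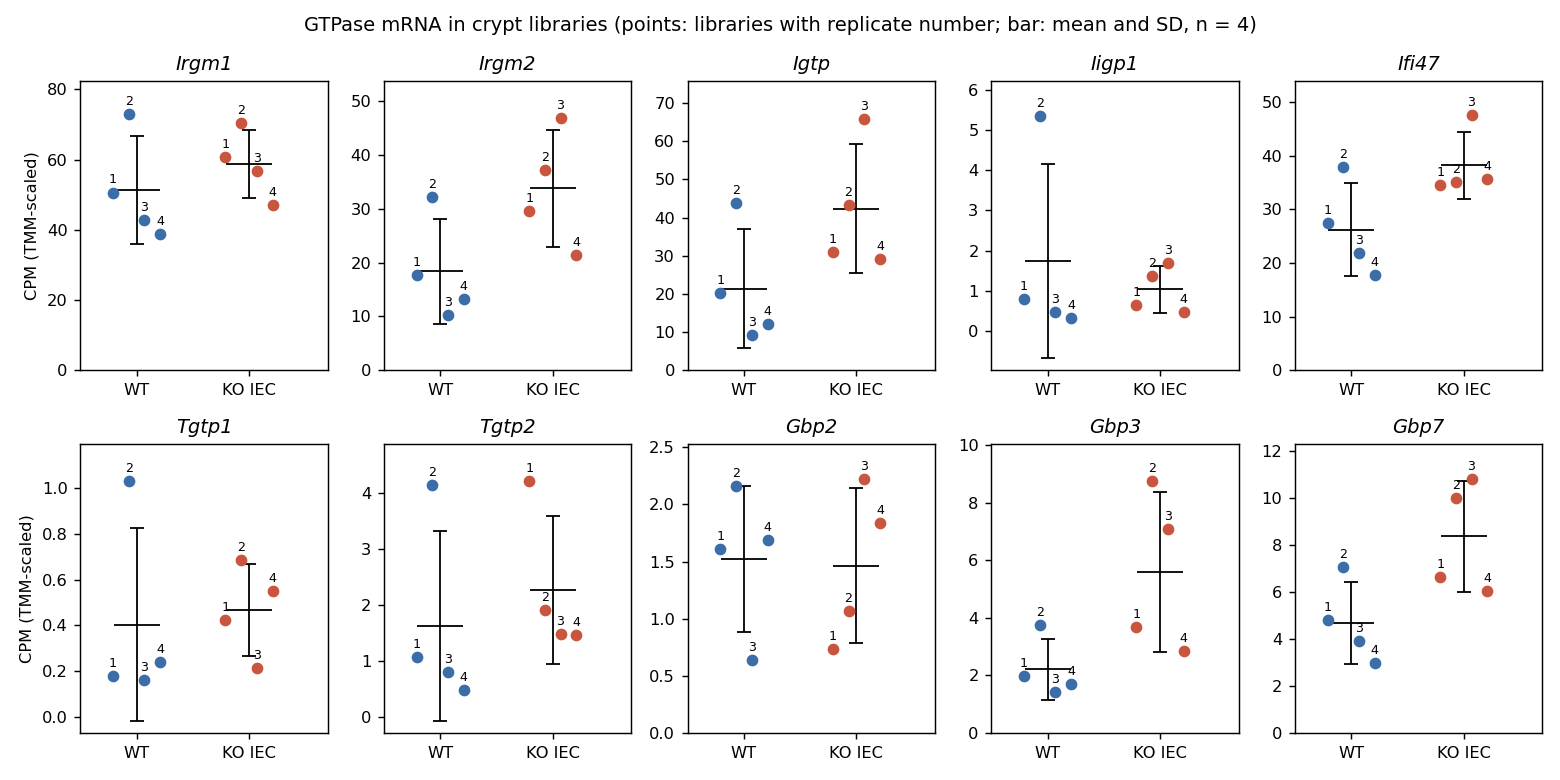
CPM of the 10 GTPase genes in each crypt library, WT (blue) and KO IEC (red), with the replicate number above each point and the mean and SD of 4 libraries as bars. WT 2 is the highest WT library for all 10 genes, and the WT and KO IEC ranges overlap for every gene.

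Irgm1 mRNA did not pass the test in the crypts. It stood at 50.6, 73.1, 42.8 and 38.9 CPM in WT 1 to 4 and at 60.7, 70.6, 56.7 and 47.2 CPM in KO IEC 1 to 4. The groups overlapped, the highest library being WT 2 and the lowest WT 4. The means were 51.3 ± 15.3 CPM for WT and 58.8 ± 9.67 CPM for KO IEC (SD, n = 4 each). The log2 fold change of KO IEC against WT was 0.20 (SE, the standard error, of 0.20, 95% confidence interval -0.25 to 0.65, adjusted p = 0.519, quasi-likelihood test of edgeR, adjusted by Benjamini-Hochberg over the genes tested). An exact two-sided permutation test of the log2 CPM values gave p = 0.371, where 4 against 4 libraries can reach 0.0286. Between libraries alike in mitochondrial ribosomal RNA the difference in log2 CPM was 0.30 (1 WT and 3 KO IEC libraries, low) and 0.28 (1 of each, middle). Without WT 2 the log2 fold change was 0.41 (adjusted p = 0.167), and over all 19 alternative settings it ran from 0.10 to 0.47 with no call.

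The other regulatory GTPases stood higher on average in KO IEC crypts without passing the adjusted test. Irgm2 was at 17.7, 32.3, 10.2 and 13.3 CPM in WT 1 to 4 and at 29.6, 37.3, 47.0 and 21.4 CPM in KO IEC 1 to 4. Its log2 fold change was 0.88 (SE 0.36, adjusted p = 0.126, edgeR). Igtp was at 20.3, 43.7, 9.33 and 12.2 CPM in WT and at 30.9, 43.3, 65.9 and 29.2 CPM in KO IEC. Its log2 fold change was 0.99 (SE 0.46, adjusted p = 0.174, edgeR). Without WT 2 the log2 fold changes were 1.30 for Irgm2 and 1.60 for Igtp. For both genes WT 2 lay inside the KO IEC range and the other 3 WT libraries lay below it.

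Among the effector GTPases, Ifi47 was the only one at a level near that of the regulators. Its values were 27.4, 37.8, 21.9 and 17.8 CPM in WT 1 to 4 and 34.6, 35.1, 47.5 and 35.7 CPM in KO IEC 1 to 4. The log2 fold change was 0.54 (SE 0.22, adjusted p = 0.127, edgeR), and again WT 2 alone reached the KO IEC range. Tgtp2 was at 1.07, 4.14, 0.798 and 0.481 CPM in WT and at 4.22, 1.90, 1.48 and 1.47 CPM in KO IEC, with a log2 fold change of 0.50 (SE 0.65, adjusted p = 0.618, edgeR). Each group held 1 high library, and the log2 fold change was 1.52 without WT 2 and 0.03 without KO IEC 1. Tgtp1 and Iigp1 did not pass the filter on low counts. Tgtp1 held 2 to 11 counts per WT library and 2 to 9 per KO IEC library. Iigp1 held 9, 57, 6 and 4 counts in WT 1 to 4 and 6, 18, 16 and 5 in KO IEC 1 to 4, so that 1 WT library gave most of the WT counts of this gene.

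Of the guanylate-binding proteins, Gbp3 and Gbp7 came nearest to the threshold and Gbp2 differed least. Gbp3 was at 1.96, 3.76, 1.44 and 1.68 CPM in WT 1 to 4 and at 3.69, 8.76, 7.09 and 2.84 CPM in KO IEC 1 to 4. Its log2 fold change was 1.35 (SE 0.43, adjusted p = 0.0727, edgeR), the largest of the set. Gbp7 was at 4.82, 7.05, 3.91 and 2.97 CPM in WT and at 6.65, 9.98, 10.8 and 6.05 CPM in KO IEC. Its log2 fold change was 0.84 (SE 0.30, adjusted p = 0.0951, edgeR). DESeq2 called both, with adjusted p = 0.0196 for Gbp3 and 0.0418 for Gbp7 (Wald test, Benjamini-Hochberg adjustment), so these calls depend on the tool. Gbp2 was at 1.61, 2.16, 0.638 and 1.68 CPM in WT and at 0.738, 1.07, 2.22 and 1.83 CPM in KO IEC, with a log2 fold change of -0.05 (95% confidence interval -1.04 to 0.93).

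In the crypts, 8 of the 10 genes passed the filter and 0 of the 8 passed an adjusted p of 0.05 in edgeR, where 6.96% of the 13427 genes tested did. At an unadjusted p under 0.05 there were 4 (Irgm2, Ifi47, Gbp3 and Gbp7), beside 31.9% of all genes tested. DESeq2 called 2, beside 18.7% of all genes to which it gave an adjusted p. The fold changes of 7 of the 8 were above 0, with a median log2 fold change of 0.69 over the 8, beside -0.01 over all genes tested. The groups were separate for 0 of the 8 genes, beside 17.5% of all genes tested. Left out in turn, the libraries moved the number at an unadjusted p under 0.05 from 1 of 9 tested (without WT 3) to 7 of 8 (without WT 2). The share of all genes at that threshold was not taken in these fits, so these counts have no background beside them. Of the fits that left out 1 library, only the one without KO IEC 1 called a gene of the set (Gbp3, log2 fold change 1.504, adjusted p = 0.0493, edgeR), 1 of 9 tested, beside 18.0% of all genes. With no filter on low counts, Gbp3 was also called, 1 of 10 tested, beside 4.91% of all genes.

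**Figure D2:**
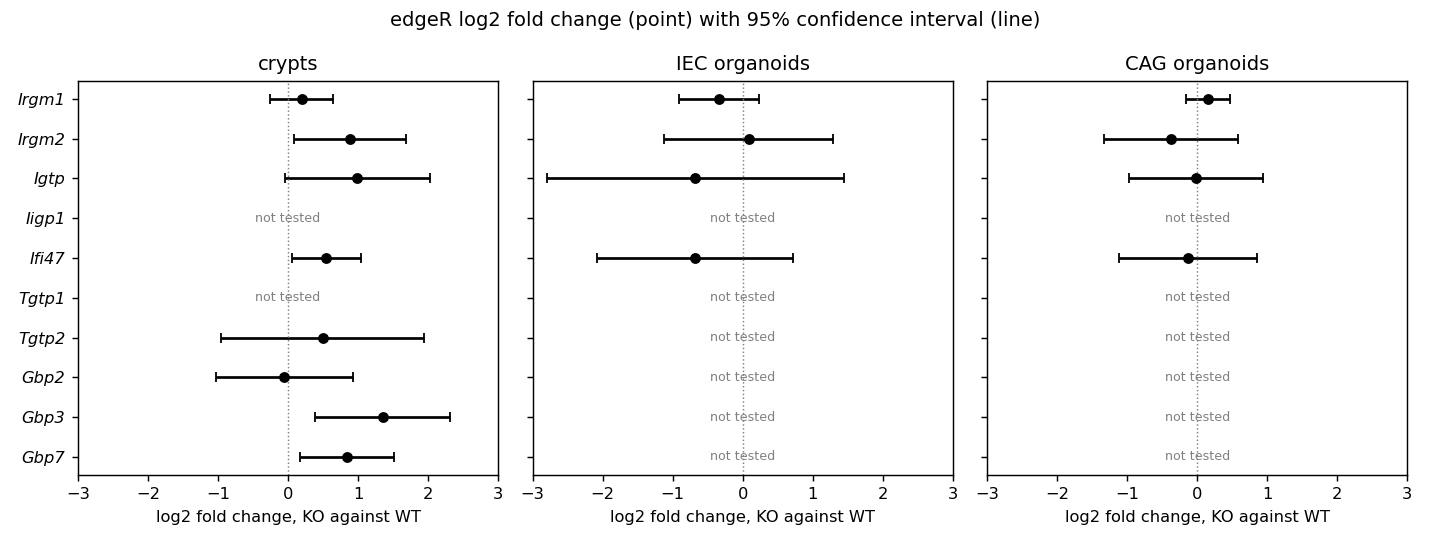
The log2 fold change of KO against WT from edgeR for each GTPase gene in the 3 experiments (points) with its 95% confidence interval (lines). In crypts the intervals of Irgm2, Ifi47, Gbp3 and Gbp7 lie above 0 before adjustment for the number of genes, and in both organoid experiments every interval spans 0.

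Markers of other cell types also differed between the crypt libraries. The 16 markers of T cells and intraepithelial lymphocytes summed to 30.8 to 156 CPM in WT crypts and 73.3 to 508 CPM in KO IEC crypts, with KO IEC 3 the highest. All 13 of them that were tested stood above 0 on the log2 fold change scale (median 1.34), and 0 passed the adjusted test in edgeR. An unadjusted p under 0.05 was found for 2 of the 13, beside 31.9% of all genes tested. The defining genes Cd3e, Cd8a and Gzma were detected in every crypt library. With the score of these markers as a covariate, the log2 fold change was 0.29 for Irgm1, 0.74 for Irgm2, 0.70 for Igtp, 1.34 for Gbp3 and -0.69 for Gbp2, and 0 GTPase genes were called. The 13 enterocyte markers summed to 3613 to 13859 CPM in WT crypts and 12790 to 26380 CPM in KO IEC crypts, and all 13 had fold changes above 0. An unadjusted p under 0.05 was found for 12 of the 13, beside 31.9% of all genes tested. In edgeR 1 was called higher, beside 4.30%, and the groups were separate for 6, beside 17.5%. With the enterocyte score as a covariate, the log2 fold change was 0.47 for Irgm1 and 1.30 for Gbp3. It moved most for Tgtp2 (to 2.08) and Gbp2 (to -1.03). In that fit 0 genes of the set were called, and 1 of the 8 had an unadjusted p under 0.05. The share of all genes at that threshold was not taken there. The part of these cells in the GTPase values was not tested beyond these fits.

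**Figure D3:**
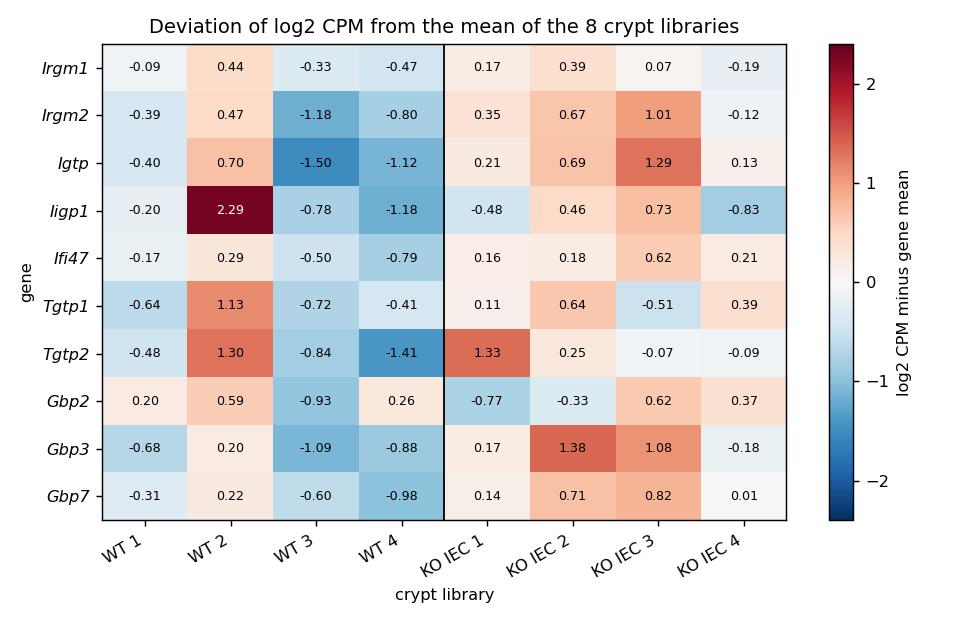
Deviation of log2 CPM of each GTPase gene from its mean over the 8 crypt libraries, with red above and blue below the mean. WT 2 is red for all 10 genes, WT 3 is blue for all 10, and the 4 KO IEC libraries are mostly at or above the mean.

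Single libraries stood high or low for several genes at once. WT 2 was the highest of the 4 WT libraries for 10 of the 10 genes. Of the KO IEC libraries, KO IEC 3 was the highest for 6, KO IEC 2 for 3 (Irgm1, Tgtp1 and Gbp3) and KO IEC 1 for Tgtp2. The mean deviation of log2 CPM over the 10 genes was -0.32, 0.76, -0.85 and -0.78 in WT 1 to 4 and 0.14, 0.50, 0.57 and -0.03 in KO IEC 1 to 4. The correlation of log2 CPM between 2 genes within genotypes ran as low as -0.00367 for Tgtp2 and Gbp2 and 0.13 for Irgm1 and Gbp2, and was 0.84 for Irgm1 and Irgm2 (Pearson's r over 8 libraries, a description). Ifng, the gene of interferon-gamma, had 0 to 2 counts in every crypt library, which is below the smallest readable level. Irf1 was highest in KO IEC 3 at 242 CPM and in WT 2 at 195 CPM.

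The genes most like Irgm1 over the 8 crypt libraries were not GTPase genes. By Pearson's r of log2 CPM these were Mex3b (0.954), an RNA-binding protein, Ubn1 (0.934), a subunit of a histone chaperone, Git2 (0.931), a regulator of ARF GTPases, Lrig3 (0.929) and Gm14121 (0.926). They were the 5 nearest of the 13427 genes tested, over 8 libraries that share preparation and depth with Irgm1, and are given as a description. The same measure between Irgm1 and the other 9 genes of the set ran from 0.108 for Gbp2 and 0.733 for Tgtp1 to 0.857 for Tgtp2.

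Per kilobase of gene length, which allows levels of different genes to be set side by side, WT crypts held most Ifi47 (10.6 CPM per kb, 7.20 to 15.3 over the 4 libraries), Igtp (10.6, 4.62 to 21.6) and Irgm1 (8.84, 6.69 to 12.6). The ranges of these 3 genes overlapped throughout. Irgm2 followed at 4.98 CPM per kb (2.77 to 8.74), and its range overlapped those of all 3. The other 6 genes were at 0.126 to 0.835 CPM per kb. In KO IEC crypts Igtp stood first at 20.9 CPM per kb, followed by Ifi47 at 15.4 and Irgm1 at 10.1. Irgm1 took 40.0% of the counts of the 10 genes in WT crypts and 30.9% in KO IEC crypts.

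**Figure D4:**
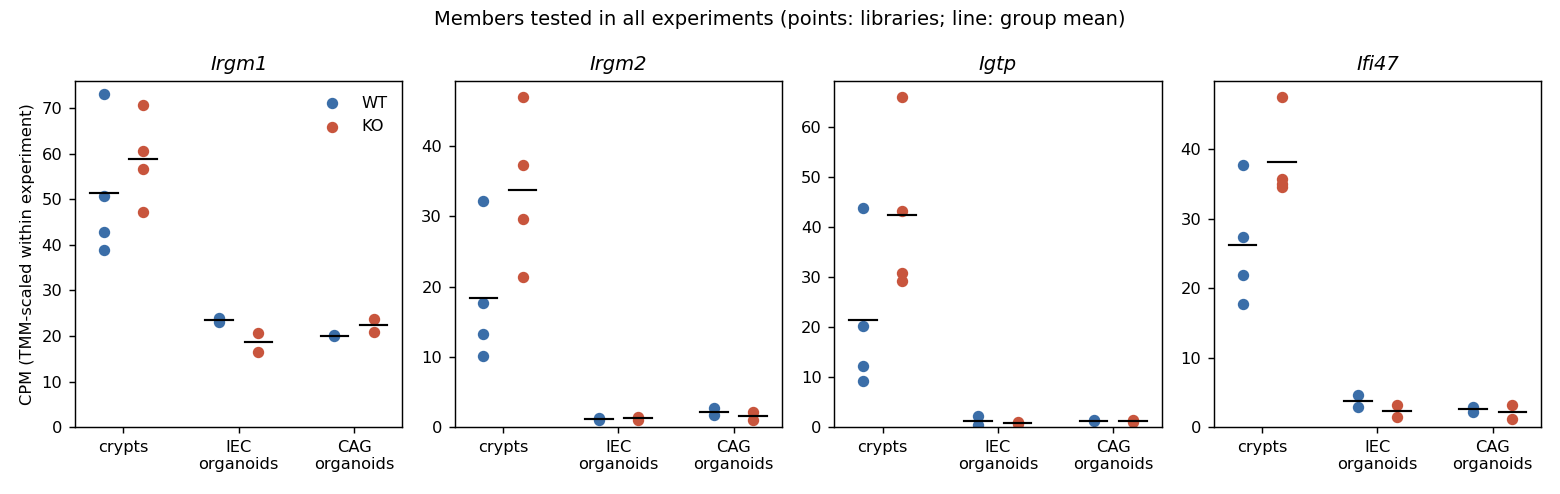
CPM of the 4 GTPase genes tested in all 3 experiments, WT (blue) and KO (red), with a line at each group mean and a linear axis from 0. Irgm1 stays near 20 CPM in organoids, while Irgm2, Igtp and Ifi47 are below 5 CPM there.

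In organoids, Irgm1 was the only GTPase gene of the set with a substantial level. The values that follow are scaled within each experiment, and crypts and organoids were prepared separately, so no test compares their levels. Irgm1 took 74.3% to 79.5% of the counts of the 10 genes in the 4 organoid groups. It was first per kilobase, at 4.06 CPM per kb in the WT group of the KO IEC experiment and 3.46 in the WT group of the KO CAG experiment. Iigp1, Tgtp1 and Tgtp2 had 0 counts in all 8 organoid libraries, which allows up to 3 counts in each. Gbp2 had 2 counts and Gbp3 had 7 counts over the 8 libraries together, and Gbp7 had 39. These 6 genes were not tested in organoids. Of the defining T cell genes named above, Cd8a and Gzma had 0 counts over the 8 organoid libraries and Cd3e had 5. Of all 16 T cell markers, Lck (203), Itgae (102) and Ptprc (30) had the most counts there, and the others had 0 to 8.

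Irgm1 differed in direction between the 2 organoid experiments, within the error of both. In the KO IEC experiment it was at 23.9 and 23.2 CPM in WT and at 16.6 and 20.7 CPM in KO IEC. The groups did not overlap, as for 38.9% of all genes tested. The log2 fold change was -0.34 (SE 0.22, 95% confidence interval -0.91 to 0.24, adjusted p = 0.856, edgeR). In the KO CAG experiment it was at 19.9 and 20.3 CPM in WT and 23.8 and 20.995 CPM in KO CAG. The groups did not overlap here either, as for 69.7% of all genes tested. The log2 fold change was 0.15 (SE 0.14, 95% confidence interval -0.16 to 0.46, adjusted p = 0.442, edgeR). With 2 libraries against 2, the exact permutation test can reach 0.333 at the lowest, and did so in both.

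The other 3 tested genes were low in organoids, with 8 to 70 counts per library, and their intervals were wide. Irgm2 was at 1.09 and 1.39 CPM in WT and at 1.08 and 1.55 CPM in KO IEC, and at 1.80 and 2.71 CPM in WT and 1.11 and 2.21 CPM in KO CAG. Igtp was at 0.518 and 2.19 CPM in WT and at 0.602 and 1.08 CPM in KO IEC, and at 1.44 and 1.29 CPM in WT and 1.11 and 1.53 CPM in KO CAG. Ifi47 was at 2.88 and 4.64 CPM in WT and at 1.44 and 3.24 CPM in KO IEC, and at 3.00 and 2.20 CPM in WT and 1.25 and 3.26 CPM in KO CAG. The groups of these 3 genes overlapped in both experiments. Their log2 fold changes were 0.08, -0.68 and -0.68 in KO IEC organoids and -0.38, -0.02 and -0.14 in KO CAG organoids, in the order Irgm2, Igtp and Ifi47. In edgeR, 0 of 4 genes were called in KO IEC organoids, where 0.00717% of the 13938 genes tested were called, and 0 of 4 in KO CAG organoids, where 31.5% of 13598 were called. An unadjusted p under 0.05 was also reached by 0 of the 4 in each, beside 4.66% and 43.0% of all genes tested, and DESeq2 called 0 in each, beside 0.187% and 20.3%.

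The effect of the deletion on Irgm1 was compared between experiments in 1 fit of all 16 libraries. The difference in log2 fold change was 0.06 for crypts minus KO CAG organoids (SE 0.32, 95% confidence interval -0.62 to 0.74, adjusted p = 0.968, edgeR). It was -0.47 for KO IEC organoids minus KO CAG organoids (SE 0.37, adjusted p = 0.699, edgeR) and 0.52 for crypts minus KO IEC organoids (SE 0.31, 95% confidence interval -0.14 to 1.19, adjusted p = 0.791, edgeR). For 0 of the 4 genes tested in all experiments did any of the 3 differences pass the adjusted test, which 0.372%, 0.385% and 0.00642% of the 15585 genes passed in the same order. The largest was that of Igtp for crypts minus KO IEC organoids, at 1.64 (95% confidence interval -0.50 to 3.79). That of Ifi47 for the same pair, at 1.22, had an unadjusted p of 0.0395 and an adjusted p of 0.694 (edgeR).

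**Figure D5:**
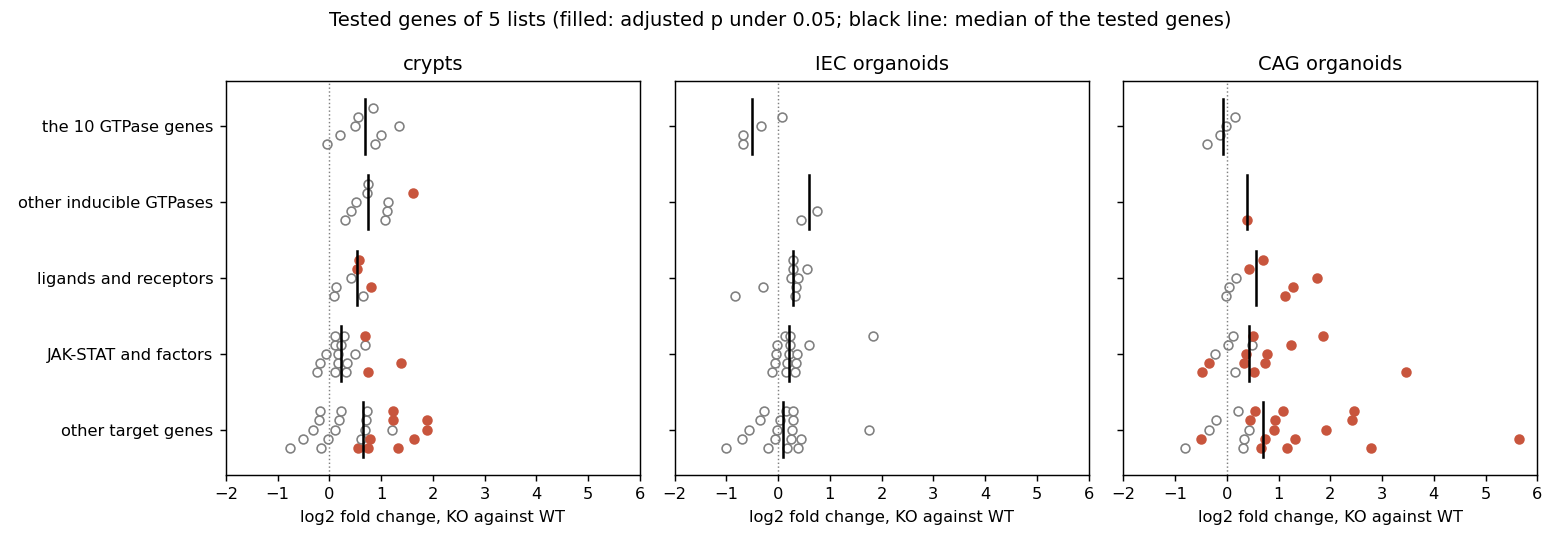
The log2 fold change of KO against WT for the tested genes of 5 lists in the 3 experiments, filled where the adjusted p is under 0.05, with the median of each list as a black line. Of the 10 chosen GTPase genes, 8, 4 and 4 were tested in crypts, KO IEC organoids and KO CAG organoids, with no filled point. Of the other target genes, 9 of 24 are filled to the right of 0 in crypts, beside 4.30% of all genes tested. In KO CAG organoids 14 of 22 are, beside 18.1%, and 1 is filled to the left, beside 13.4%. The medians of the GTPase genes and the other target genes in crypts were 0.69 and 0.65, and no test compared the lists.

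Other genes of the interferon pathway were tested in the same fits. In crypts, 1 of the 9 tested genes among 21 other interferon-inducible GTPases was higher in KO IEC, beside 4.30% of all genes tested, and 0 were lower, beside 2.66%. DESeq2 called 4 of the same 9 higher, and it called 18.7% of all genes in either direction. The edgeR count was 2 of 6 with at least 10 counts in every library, where 1114 genes were called over all genes, beside 934 in the main fit. It was 3 of 20 with no filter, where 4.91% of all genes were called in either direction. The gene called in the main fit was Gm5431, a predicted immunity-related GTPase, which rose from 6.46 ± 2.37 to 19.7 ± 4.54 CPM (SD, n = 4 each, log2 fold change 1.61, adjusted p = 0.0397, edgeR). All 9 had fold changes above 0, among them the antiviral GTPases Mx1 (1.07) and Mx2 (1.14), with adjusted p of 0.0941 and 0.0577 (edgeR). Of 24 tested genes among 28 other interferon-gamma targets, 9 were higher in KO IEC crypts and 0 lower. The first 6 by adjusted p were Apol9b (log2 fold change 1.89), Parp14 (1.32), Parp9 (0.77), Apol9a (1.63), the chemokine Cxcl11 (1.89) and Dtx3l (1.22), a partner of Parp9.

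Upstream of these genes, 3 of 7 tested ligand and receptor genes were higher in KO IEC crypts and 0 lower. Of all genes tested, 4.30% were higher and 2.66% lower, shares that stand beside each list here. The 3 genes were Ifngr2 (log2 fold change 0.54), the interferon-lambda receptor chain Ifnlr1 (0.81) and its partner Il10rb (0.57). Of 17 genes for kinases and transcription factors, 3 were higher and 0 lower: Jak2 (0.75), Stat2 (0.69) and Irf7 (1.39), a factor of the type I response. Irf1 had a log2 fold change of 0.10 (adjusted p = 0.688, edgeR). Usp18, which restrains the type I receptor, rose from 3.76 to 17.6 CPM (log2 fold change 2.23, adjusted p = 0.0226, edgeR) and was the only one of 8 negative regulators that passed. Of 13 autophagy genes, with which Irgm1 is functionally linked, 0 passed in edgeR. An unadjusted p under 0.05 was found for 5 of these 13, beside 31.9% of all genes tested. These crypt counts changed when single libraries were left out: without WT 2 the number of the other target genes called higher was 0, without WT 3, KO IEC 2 or KO IEC 3 it was also 0, and without KO IEC 1 it was 12. Over all genes the number called ran from 2 to 2468 in the same fits, beside 934 with all libraries. With all libraries, 14 of the 24 target genes had an unadjusted p under 0.05, beside 31.9% of all genes tested. Left out in turn, the libraries moved this number from 12 (without WT 3) to 16 (without WT 4), and it was 15 without WT 2. The share of all genes at that threshold was not taken in these fits. Fewer genes were also called in fits with the cell markers and RNA measures that moved alongside. The 9 target genes called higher became 0 with the enterocyte score as a covariate and 1 with the T cell score. They became 0 with the mitochondrial RNA class and 0 without WT 2 and WT 3 together. At an unadjusted p under 0.05 there were 5, 14, 10 and 10 of the 24 target genes in the same order. No share of all genes at that threshold was taken in these fits, so whether these counts exceed it is not known. In each of these 4 fits the other 5 lists had 0 genes called higher, except 1 negative regulator with the T cell score, and 1 to 66 genes were called over all genes. The part of these measures in the list counts was not tested beyond these fits.

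In KO CAG organoids, genes of the same lists also passed the test. Of 22 tested genes among the other targets, 14 were higher and 1 lower (Casp1), beside 18.1% and 13.4% of all genes tested. The adhesion molecule Icam1 had 2 counts over both WT libraries, under the smallest readable level, and 123 over both KO CAG libraries. Per total count this was a ratio of 54.9 with an exact 95% counting interval of 14.9 to 458 (adjusted p = 3.91e-05, edgeR). Genes of antigen presentation followed, with Tapbp at a log2 fold change of 1.16, B2m at 1.08, H2-D1 at 0.93, H2-K1 at 0.91 and the immunoproteasome subunit Psmb8 at 1.92. Of 16 tested kinases and transcription factors, 9 were higher and 2 lower. Irf7 rose from 7.84 to 28.5 CPM (log2 fold change 1.85, adjusted p = 0.000363, edgeR) and Irf1 from 26.1 to 43.8 CPM (0.74, adjusted p = 0.00546, edgeR). Stat3 (0.78), Stat2 (0.53) and Jak1 (0.34) were also higher, and Irf8 was lower (-0.48). Of 8 tested ligand and receptor genes, 5 were higher: Il18 (1.75), Ifnar2 (1.12), Ifnlr1 (0.70), Il10rb (0.43) and Il18r1 (1.29). Among these, Il18 and Il18r1 are genes of interleukin 18 and its receptor, not of an interferon. Irgq, a divergent member of the GTPase family and the only other GTPase gene tested there, was higher as well (0.39, adjusted p = 0.0217, edgeR). Of 13 autophagy genes, 4 were higher: Gabarap (0.46), Gabarapl2 (0.43), Atg3 (0.35) and Gabarapl1 (0.35). Of 6 tested negative regulators, Ptpn6 was higher (0.45) and Irf2bp2 lower (-0.44).

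In KO IEC organoids, 0 genes of these 6 lists were called in edgeR, of 64 tested, with 3 at an unadjusted p under 0.05 (4.66% of all genes tested) and 0 called by DESeq2 (0.187%). With no filter, 1 of 17 kinases and factors and 1 of 26 other target genes were called higher. In that fit 223 genes were called over all genes, beside 1 in the main fit. A fit without KO IEC 1 of the KO IEC organoid experiment also reached calls, over all genes as well. It leaves 1 library in its group, so its calls are not counted here. Ifng had 0 counts in the 4 libraries of the KO IEC organoid experiment and 3 counts in the KO CAG experiment, all in WT. Irf1 had a log2 fold change of 0.37 in KO IEC organoids (adjusted p = 0.856, edgeR). The number of the other target genes called higher in KO CAG organoids was 14 in the main fit and 5 in the fit of all 16 libraries. Over all genes, the number called was 4278 in the main fit and 477 in the fit of all 16 libraries. Between the same 2 fits, the kinases and factors called higher fell from 9 to 2, the autophagy genes from 4 to 0, and the ligands and receptors from 5 to 0. Irgq was not called in the fit of all 16 libraries. Calls also changed, over all genes as well, when 1 library of the KO CAG experiment was left out. Such fits leave 1 library in a group, so their calls are not counted here. The 13 enterocyte markers summed to 8704 and 9082 CPM in WT and to 19813 and 15964 CPM in KO CAG organoids. Of these markers, 11 were called higher, beside 18.1% of all genes tested, and their part in the calls was not tested.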

How the data were processed

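The authors deposited 1 table of raw counts per experiment, the number of reads assigned to each gene in each library, with no normalization and no pooling of replicates. HISAT2 2.0.5 and featureCounts 1.5.0-p3 are named in the submitters' processing notes. Settings, strand use and genome build are not given in the sources used here, so a gene and its antisense or overlapping partner may share reads. Groups came from the sample labels, 2 or 4 libraries each. The study's methods call them biological replicates, without tying libraries to animals, so p-values may measure technical spread in part.

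From the deposited counts, each experiment was fitted alone, KO against WT, without a block. Genes were kept by filterByExpr, scaled by TMM and tested with the quasi-likelihood test of edgeR 4.0.16 in R 4.3.3, at an adjusted p of 0.05 over all tested genes (Benjamini-Hochberg). Standard errors were recovered from each log2 fold change and its F statistic. Log2 CPM carries a prior count of 2. Gene length is the length column of the tables, used for CPM per kilobase only. Differences between experiments were interaction terms of 1 fit of 16 libraries. Scripts were tested on simulated counts. Promoter windows are RefSeq's on GRCm38.p6, of which bases after the start site were left out.

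The 10 genes and all lists were chosen by hand with earlier results of these data known. Named are the 10 genes in every comparison, up to 6 called genes per list by adjusted p, Ifng, Irf1, Cul4b, mt-Rnr1, mt-Rnr2, and the 5 genes most correlated with Irgm1. Of the genes that rule names, 1 is not reported here. Mx1, Mx2, Casp1 and the T cell genes named by level lie outside that rule and were chosen after their values were seen. Itgam, with 2 rows in the tables, was not tested. Alternatives were DESeq2 size factors, scaling by library size, no filter, at least 10 counts per library, the DESeq2 1.42.0 Wald test, a replicate block, all libraries in 1 fit, a fold change of at least 2, leaving out libraries, and for crypts the mitochondrial class (bounds of 100 and 2000 CPM), enterocyte score or T cell score as a covariate. The same alternatives for the other lists were added after seeing the data.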

Additional observations from a re-analysis of the deposited data

Results flagged for a closer look

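In the crypts, each of the 10 GTPase genes was checked in the 4 WT and the 4 KO IEC libraries for 1 library far from the other 3, by the gap to the nearest library as a share of the range. Of 20 groups, 5 passed Dixon's critical value. Chance gives about 1 in 20 for independent groups with a normal spread, which low counts of genes read in the same libraries need not meet. Of the 5, 3 concern the same library, WT 2, and the effector GTPases: Iigp1 at 5.36 CPM, Tgtp1 at 1.03 CPM and Tgtp2 at 4.14 CPM. Tgtp1 and Tgtp2 share most of their transcript sequence, so their values are not independent. The others are Tgtp2 in KO IEC 1 at 4.22 CPM and Ifi47 in KO IEC 3 at 47.5 CPM, the library with the most T cell marker RNA (508 CPM). What sets these libraries apart was not tested.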

How the results depend on the processing

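The number of GTPase genes called in crypts, 0 in edgeR with all libraries, was 1 with no filter on low counts (Gbp3), 2 with the DESeq2 Wald test (Gbp3 and Gbp7), and 0 to 1 when each library was left out in turn (Gbp3 without KO IEC 1). It was 0 under the other settings and in both organoid experiments under every setting. The cause of these calls was not tested. Directions turned only where a library was left out, and only in genes that were not called. These ran over all such fits from -0.31 to 0.16 for Gbp2 in crypts, from -0.19 to 0.32 for Irgm2 and -1.38 to 0.67 for Igtp in KO IEC organoids, and from -0.30 to 0.14 for Igtp and -1.06 to 0.30 for Ifi47 in KO CAG organoids, on the log2 scale. Fits that leave 1 library in an organoid group assume that it varies like the others.

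Whether same-numbered WT and KO libraries form pairs is not stated in the sources used here. Their deviations from the group means correlated at -0.04, 0.19, -0.40 and 0.43 in crypts. The values were 0.34 and 0.07 in the KO IEC and KO CAG organoid experiments, where 2 libraries per group force both pairs to the same value. These correlations cannot decide whether the libraries were paired. With a replicate block 0 GTPase genes were called in each experiment, and Irgm1 had log2 fold changes of 0.22, -0.35 and 0.15. In crypts its SE was 0.11 with the block (adjusted p = 0.217, edgeR) and 0.20 without it. The crypt calls over all genes fell to 4 with the block, with 0 in the other interferon lists there. Irgm1 had 157 to 926 counts per library, against 2 to 11 for Tgtp1 in crypts, so depth limits the low genes most.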

Other observations

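Markers of the cells around the GTPase genes gave further values in the same fits. Lgr5, the marker of intestinal stem cells, was lower in KO IEC crypts (25.3 to 15.2 CPM in the group means, adjusted p = 0.0379, edgeR) and in KO CAG organoids (508 to 214 CPM, adjusted p = 9.27e-05, edgeR). All 10 crypt base markers had log2 fold changes below 0 in crypts (median -0.51, 2 called lower, Lgr5 and Ascl2) and in KO IEC organoids (median -1.08, 0 called in edgeR, 3 at an unadjusted p under 0.05). Of all genes tested, 2.66% were called lower in crypts, and 4.66% had an unadjusted p under 0.05 in KO IEC organoids. In KO CAG organoids 3 of the 10 markers were higher, the Paneth cell genes Lyz1, Mmp7 and Defa24 (0.96, 1.55 and 0.55), and 3 lower, Lgr5, Slc12a2 and Smoc2 (-1.25, -0.40 and -0.38). There, 18.1% of all genes tested were higher and 13.4% lower. In crypts, the 12 myeloid markers summed to 32.4 to 44.3 CPM in WT and 21.1 to 29.3 CPM in KO IEC, with 0 of the 4 tested called in edgeR and 2 at an unadjusted p under 0.05. The 11 stromal and endothelial markers summed to 14.6 to 18.7 CPM in WT and 7.81 to 11.6 CPM in KO IEC, also with 0 of 4 called and 1 at an unadjusted p under 0.05. Of all genes tested in crypts, 31.9% had an unadjusted p under 0.05. Of 7 tested B and plasma cell markers, Cd79b was lower (log2 fold change -1.09, adjusted p = 0.0461, edgeR), beside 2.66% of all genes tested.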
